A study of Mus musculus with 11 samples.

Results

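The genes described here are 9 components of transforming growth factor beta (TGF-beta) signalling: the ligands Tgfb1, Tgfb2 and Tgfb3, the receptors Tgfbr1, Tgfbr2 and Tgfbr3, the mediator Smad3, and the feedback genes Smad7 and Skil. They were chosen by symbol from a gene count table of 21684 genes, and all 9 were among the 13332 genes that passed the filter on low counts. The cells were NIH/3T3, an immortal fibroblast line derived from mouse embryos, and their RNA was sequenced in 11 libraries of 4 genotypes. There were 2 libraries of WT cells and 3 of each knockout, named Xap5 KO, Nono KO and Sox5 KO. Every culture, WT included, was seeded sparsely, grown for 24 h with 10% calf serum and then kept for 24 h without serum, the treatment used to induce primary cilia. Xap5 is the gene with the mouse symbol Fam50a. The labels name neither the kind of lesion nor separate clones, so each knockout was taken as 1 line, and what belongs to that line cannot be told apart from the knockout. Nor do they say whether replicates came from separate cultures, so p-values measure the spread between these libraries, which may be technical.

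TGF-beta ligands are secreted in a latent complex and bind TGFBR2, a receptor kinase that recruits and phosphorylates TGFBR1. TGFBR3 (betaglycan) is a co-receptor that presents ligand, TGFB2 above all. Activated TGFBR1 phosphorylates SMAD2 and SMAD3, which enter the nucleus with SMAD4 and act on target genes. Among those targets are Smad7, whose product blocks the receptor, and Skil, which encodes the corepressor SnoN. In fibroblasts the pathway is known for driving matrix production and a contractile, smooth-muscle-like programme.

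Library depth was 30205878 to 43498383 counts. The 9 genes had between 394 counts (Skil in Sox5 KO) and 14833 counts (Tgfbr3) in any library, so depth did not limit their detection. The targeted genes fell in their own knockouts: Fam50a stood at 64.8 and 62.9 CPM (counts scaled to a common library size by the trimmed mean of M-values) in WT and at 7.49 to 7.91 in Xap5 KO. Nono fell to 8.99% of WT in Nono KO and Sox5 to 28.1% in Sox5 KO. Sox5 was also at 28.7% of WT in Xap5 KO and at 16.3% in Nono KO, so low Sox5 mRNA was shared by the 3 knockouts. The 8 fibroblast markers were all at 1 CPM or more on average over all libraries, whereas none of the 6 epithelial or 5 endothelial markers was. Epcam, Krt8 and Krt18 had at most 3 counts in every library. Some marker lists moved with genotype. The endothelial markers summed to 1.41 to 2.79 CPM in Nono KO, where Tek averaged 1.80, against 0.206 to 0.772 elsewhere. Of 5 haematopoietic markers 2 were at 1 CPM or more, and their summed level was 7.25 to 10.9 CPM in Nono KO, where Ptprc averaged 6.66, against 1.88 to 3.38 elsewhere. Of 4 muscle markers only Des was, at 0 in WT and on average 1.08 to 2.50 CPM in the knockouts. The 5 proliferation markers summed to 190.5 to 235 CPM in WT, 406 to 451 in Xap5 KO, 249.9 to 340 CPM in Nono KO and 208 to 238 CPM in Sox5 KO. They did not all move alike. In Xap5 KO Mki67, Top2a, Ccnb1 and Bub1 averaged above WT, but Cdk1 was lower, at 23.8 from 30.1 CPM. In Sox5 KO Mki67 was lower, at 45.7 from 66.9 CPM, and the others averaged above WT. The part of these marker lists in the results was not tested. The summed level of 9 genes of the Y chromosome was 199 to 204 CPM in WT and 0 to 0.390 in the 9 knockout libraries. The WT libraries therefore stood apart from every knockout library in this respect, and every comparison with WT includes that difference. In RNA from whole cultures, fewer cells of a kind cannot be told apart from less RNA per cell.

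Against WT, the members moved in different patterns in the 3 knockouts. Tgfb1, Tgfbr1 and Smad7 were lower in all 3. Tgfb2 and Tgfbr2 were highest in Nono KO, and Tgfb3, Tgfbr3, Smad3 and Skil were lowest in Sox5 KO. A gene was called changed at an adjusted p under 0.05 in edgeR's quasi-likelihood test, fitted to all 11 libraries with Benjamini-Hochberg adjustment over the 13332 genes. In Xap5 KO, 8 of 9 members were called, 2 higher and 6 lower, against 45.5% of all tested genes, 23.2% higher and 22.3% lower. Nono KO had 8 of 9 members called as well, 5 higher and 3 lower, against 48.6% of all tested genes, 23.5% higher and 25.1% lower. In Sox5 KO 7 of 9 were called, all 7 lower, against 60.9% of all tested genes, 30.6% higher and 30.3% lower. The median log2 fold change of the members was -0.27 for Xap5 KO, 0.26 for Nono KO, and lowest for Sox5 KO at -0.74, beside medians over all tested genes of 0.0026, -0.020 and -0.0058. With a further requirement of a 2-fold change, 0, 3 and 2 members were called, against 10.3%, 11.2% and 17.2% of all tested genes. The split of higher and lower members moved with the scaling. It was 3 and 3 in Nono KO with library totals, where all tested genes moved to 2157 higher and 4989 lower from 3134 and 3342. Under an offset for GC content and length, added after the data were seen, it was 3 and 5 in Xap5 KO and 2 and 7 in Sox5 KO. The 3 comparisons share the same 2 WT libraries, so their results are not independent of each other.

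**Figure D1:**
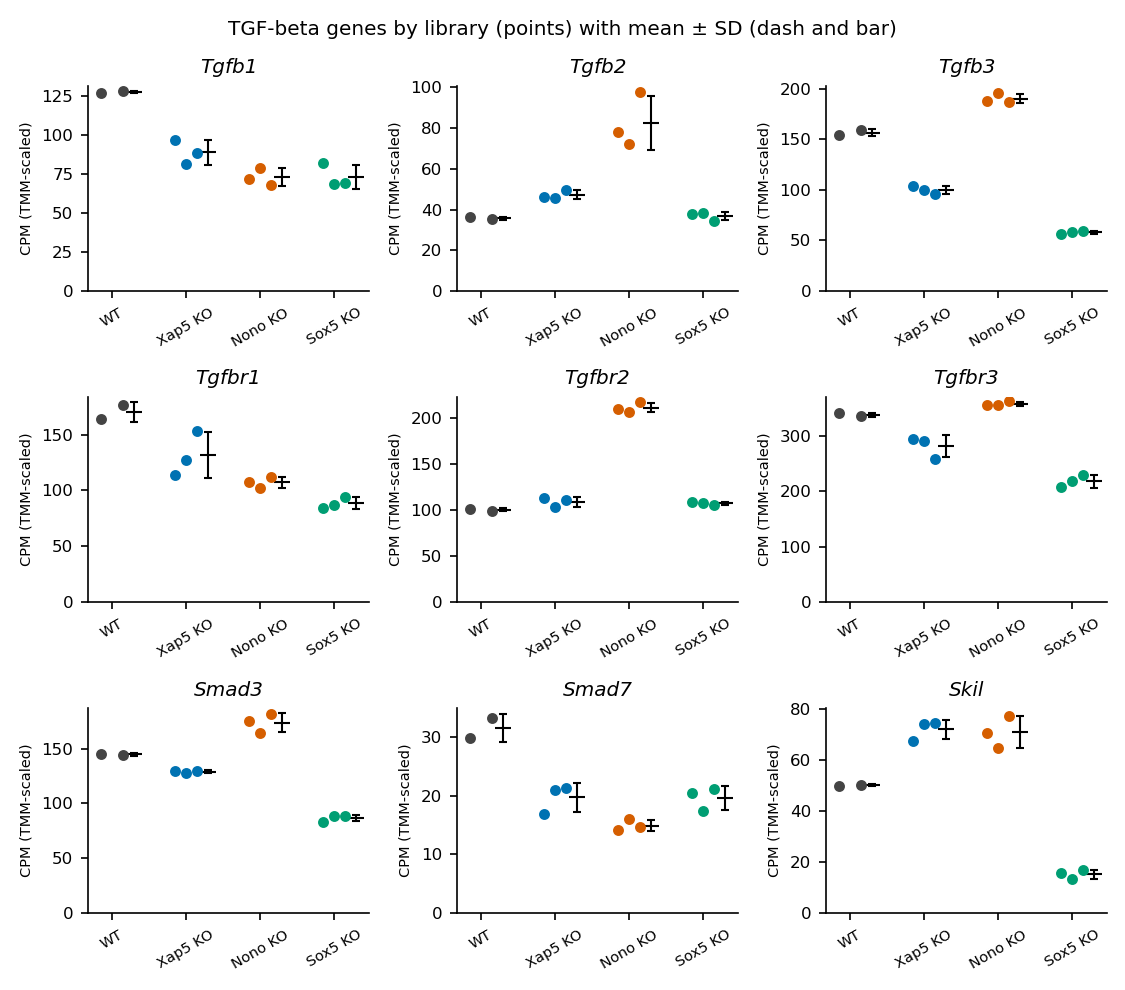
Normalised level of each of the 9 genes (CPM, linear axis from 0) in the 11 libraries by genotype; each point is a library, and dash and bar give the group mean ± SD. Tgfbr2 reaches 207 to 217 CPM in the 3 Nono KO libraries while the other 8 libraries stay between 99.3 and 113, and Skil is at 13.4 to 16.7 CPM in the 3 Sox5 KO libraries only.

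Tgfb1 encodes the founding ligand of the family. Its level was 127 and 128 CPM in WT, 96.7, 81.2 and 88.4 in Xap5 KO, 71.5, 79.1 and 67.9 in Nono KO, and 82.0, 68.3 and 69 in Sox5 KO. Every knockout library lay below both WT libraries, and the Sox5 KO range overlapped those of both other knockouts. Tgfb1 fell by 0.52 (SE 0.0858) on the log2 scale in Xap5 KO, with an edgeR adjusted p of 4.12e-05. The fall was larger in Nono KO, at -0.81 (SE 0.0858, edgeR adjusted p = 1.09e-07), and also in Sox5 KO, at -0.80 (SE 0.0861, edgeR adjusted p = 6.80e-08). As group means, 88.8 ± 7.77 CPM remained in Xap5 KO (SD, n = 3), 72.8 ± 5.68 in Nono KO and 73.1 ± 7.74 in Sox5 KO, from 127 ± 0.742 in WT (SD, n = 2).

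Tgfb2, the ligand that depends most on betaglycan for receptor binding, had the lowest level of the 3 ligands in WT. It was at 36.1 and 35.2 CPM in WT, 46.1, 45.8 and 49.8 in Xap5 KO, 78.1, 72.3 and 97.5 in Nono KO, and 38.0, 38.1 and 34.5 in Sox5 KO. The Nono KO libraries were the highest and the Xap5 KO libraries came next, with no overlap between these groups or with WT. The Sox5 KO range enclosed the WT range. Nono KO cells had 232% of the WT mean, a log2 fold change of 1.21 (SE 0.105, edgeR adjusted p = 4.09e-09). In Xap5 KO Tgfb2 rose by 0.41 (SE 0.103, edgeR adjusted p = 0.00269). In Sox5 KO the log2 difference was 0.05 (SE 0.103, edgeR adjusted p = 0.70); with the offset for GC content and length it was 0.30 (adjusted p = 0.0226).

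Tgfb3, the third ligand, gave the widest spread of the ligands between genotypes. It stood at 154 and 159 CPM in WT, 104, 99.8 and 95.5 in Xap5 KO, 188, 196 and 187 in Nono KO, and 56, 58.6 and 59.5 in Sox5 KO. The 4 groups did not overlap: Nono KO was highest, then WT, then Xap5 KO, then Sox5 KO. Sox5 KO cells kept 37.0% of the WT mean, a log2 fold change of -1.43 (SE 0.0594, edgeR adjusted p = 2.17e-14). Xap5 KO cells kept 63.6%, at -0.65 (SE 0.0588, edgeR adjusted p = 1.07e-08). In Nono KO Tgfb3 rose by 0.28 (SE 0.0594, edgeR adjusted p = 0.000500). That rise was 0.12 (adjusted p = 0.0893) when libraries were scaled by their totals alone, a scaling that moved the median of all genes in Nono KO by -0.18. The genes of chromosome 12, where Tgfb3 lies, had a median log2 fold change of -0.75 in Sox5 KO, and the 40 tested genes nearest to Tgfb3 one of -0.84. Relative to the chromosome's median, Tgfb3 in Sox5 KO was at -0.70 (adjusted p = 7.11e-09). Whether these neighbouring shifts take part in the Tgfb3 value was not tested further.

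Tgfbr1 encodes the type I receptor kinase, the step that phosphorylates the receptor SMADs. Its level was 164 and 176 CPM in WT, 114, 128 and 154 in Xap5 KO, 107, 102 and 112 in Nono KO, and 84.3, 86.8 and 94.5 in Sox5 KO. All 9 knockout libraries were below WT, and Sox5 KO was below the others without overlap. The group means were 77.4%, 63.0% and 52.0% of WT. On the log2 scale Tgfbr1 fell by 0.37 (SE 0.0940, edgeR adjusted p = 0.00403) in Xap5 KO. In Nono KO it fell by 0.67 (SE 0.0938, edgeR adjusted p = 1.63e-05), and in Sox5 KO it fell by 0.94 (SE 0.0942, edgeR adjusted p = 1.73e-07). The Sox5 KO value was -0.59 under the offset for GC content and length.

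Tgfbr2 encodes the ligand-binding type II receptor kinase. It was measured at 101 and 99.3 CPM in WT, 113, 103 and 111 in Xap5 KO, 210.0, 207 and 217 in Nono KO, and 109, 108 and 106 in Sox5 KO. The 3 Nono KO libraries stood apart from the other 8. Nono KO cells had 211% of the WT mean, a log2 fold change of 1.08 (SE 0.0606, edgeR adjusted p = 4.11e-12). The differences in Xap5 KO, 0.12 (SE 0.0592, edgeR adjusted p = 0.102), and in Sox5 KO, 0.10 (SE 0.0593, edgeR adjusted p = 0.154), did not pass the threshold. Both passed it under the offset for GC content and length, at 0.22 (adjusted p = 0.00511) and 0.62 (adjusted p = 2.05e-08). Genes of chromosome 9 had a median of 0.35 in Nono KO, and relative to it Tgfbr2 was at 0.72, still called.

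Tgfbr3, the betaglycan gene, had the highest level per transcript length of the 9. It was at 342 and 337 CPM in WT, 295, 291 and 259 in Xap5 KO, 356, 356 and 363 in Nono KO, and 207, 218 and 230.2 in Sox5 KO. Sox5 KO libraries were the lowest and Xap5 KO libraries lay between them and WT, without overlap. Tgfbr3 fell by 0.63 (SE 0.0625, edgeR adjusted p = 1.75e-08) on the log2 scale in Sox5 KO, and it fell by 0.27 (SE 0.0627, edgeR adjusted p = 0.00150) in Xap5 KO. In Sox5 KO the value was -0.28 under the offset for GC content and length. In Nono KO the difference was 0.08 (SE 0.0630, edgeR adjusted p = 0.316), and 0.29 (adjusted p = 0.00102) relative to the median of chromosome 5.

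The region just upstream of the start of Tgfb2 and of Tgfbr2, the 2 members with the largest rise in Nono KO, is printed to show what lies in front of the ligand and receptor that were highest together. RefSeq promoter entries on GRCm38.p6 were used for 5 members: Tgfb1, Tgfb2, Tgfbr1, Tgfbr2 and Smad3. Windows of Tgfb3, Tgfbr3 and the feedback genes Smad7 and Skil were left out, so their upstream letters are not described. Each sequence is the 250 bases before the annotated start, 5′ to 3′ on the gene's strand, which is the minus strand for both. Capitals mark CAGAC or its reverse complement GTCTG, the short SMAD-binding letters. The Tgfb2 window is chr1:186705990-186706239 and the Tgfbr2 window chr9:116175364-116175613.
Tgfb2: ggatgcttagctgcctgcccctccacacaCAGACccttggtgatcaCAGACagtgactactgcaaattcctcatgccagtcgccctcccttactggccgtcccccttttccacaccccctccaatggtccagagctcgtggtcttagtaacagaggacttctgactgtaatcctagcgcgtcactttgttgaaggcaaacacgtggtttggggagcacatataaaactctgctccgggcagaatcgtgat
Tgfbr2: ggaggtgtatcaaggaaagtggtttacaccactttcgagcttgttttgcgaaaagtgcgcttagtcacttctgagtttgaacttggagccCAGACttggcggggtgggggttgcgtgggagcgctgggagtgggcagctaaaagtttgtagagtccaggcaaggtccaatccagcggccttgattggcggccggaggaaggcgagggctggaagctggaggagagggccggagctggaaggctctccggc
The Tgfb2 window held 2 matches and the Tgfbr2 window 1, while 42.2% of 32851 promoter windows of this length held at least 1. No match was found in the Tgfb1 and Smad3 windows, and 1 of 2 Tgfbr1 windows had a match. The letters ACAAT or ATTGT, the core that SOX proteins bind, occurred in none of these windows and in 27.7% of all. A match describes letters only, and no binding was measured.

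Smad3 encodes the receptor SMAD that binds DNA directly. Its level was 145 and 144 CPM in WT, 130.0, 127 and 129.7 in Xap5 KO, 175, 165 and 181 in Nono KO, and 83.4, 88.8 and 88.2 in Sox5 KO. The 4 groups did not overlap, and their order was that of Tgfb3. Smad3 fell by 0.74 (SE 0.0592, edgeR adjusted p = 7.31e-10) on the log2 scale in Sox5 KO. In Nono KO it rose by 0.26 (SE 0.0596, edgeR adjusted p = 0.000942). This rise was not called with library totals as the only scaling (0.10, adjusted p = 0.172), nor relative to the median of chromosome 9, where the value was -0.09 (adjusted p = 0.243). The Xap5 KO value, -0.17 (SE 0.0591, edgeR adjusted p = 0.0274), was not called without WT replicate 1 (adjusted p = 0.107), without WT replicate 2 (adjusted p = 0.0874) or without Xap5 KO replicate 2 (adjusted p = 0.0595). It was -0.28 relative to chromosome medians and -0.07 (adjusted p = 0.357) under the offset for GC content and length. Under that offset the Sox5 KO value was -0.48.

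Smad7, which encodes the inhibitory SMAD that binds the type I receptor, had the lowest mean level of the 9 per transcript length over all libraries (4.80 CPM per kb), although Tgfb2 was below it in WT and Skil in Sox5 KO. It was at 29.8 and 33.2 CPM in WT, 16.9, 21 and 21.3 in Xap5 KO, 14.1, 16.0 and 14.6 in Nono KO, and 20.4, 17.4 and 21.1 in Sox5 KO. Every knockout library lay below WT, and the Nono KO libraries were below all others. Smad7 in Nono KO was at 47.3% of WT, a log2 fold change of -1.08 (SE 0.121, edgeR adjusted p = 2.16e-07). It fell by 0.68 (SE 0.121) in Xap5 KO and was at -0.68 (SE 0.121) in Sox5 KO, with edgeR adjusted p-values of 9.94e-05 and 4.93e-05. Nono KO was therefore the genotype with the highest Tgfb2 and Tgfbr2 and the lowest Smad7.

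Skil, whose product SnoN represses SMAD targets, had the largest change against WT of any member, though not under the offset for GC content and length. Its level was 49.9 and 50.4 CPM in WT, 67.6, 74.1 and 74.3 in Xap5 KO, 70.6, 64.8 and 77.2 in Nono KO, and 15.6, 13.4 and 16.7 in Sox5 KO. Xap5 KO and Nono KO overlapped each other and lay above WT, and Sox5 KO lay far below. In Sox5 KO 30.4% of the WT mean was left, a log2 fold change of -1.72 (SE 0.0955, edgeR adjusted p = 1.97e-12). Under the offset for GC content and length this value was -1.27, a smaller fall than that of Tgfb3 (-1.46). Skil rose by 0.52 (SE 0.0936, edgeR adjusted p = 0.000103) in Xap5 KO and by 0.50 (SE 0.0936, edgeR adjusted p = 0.000148) in Nono KO. The 2 feedback genes thus both fell in Sox5 KO, and in Xap5 KO and Nono KO Smad7 fell while Skil rose.

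**Figure D2:**
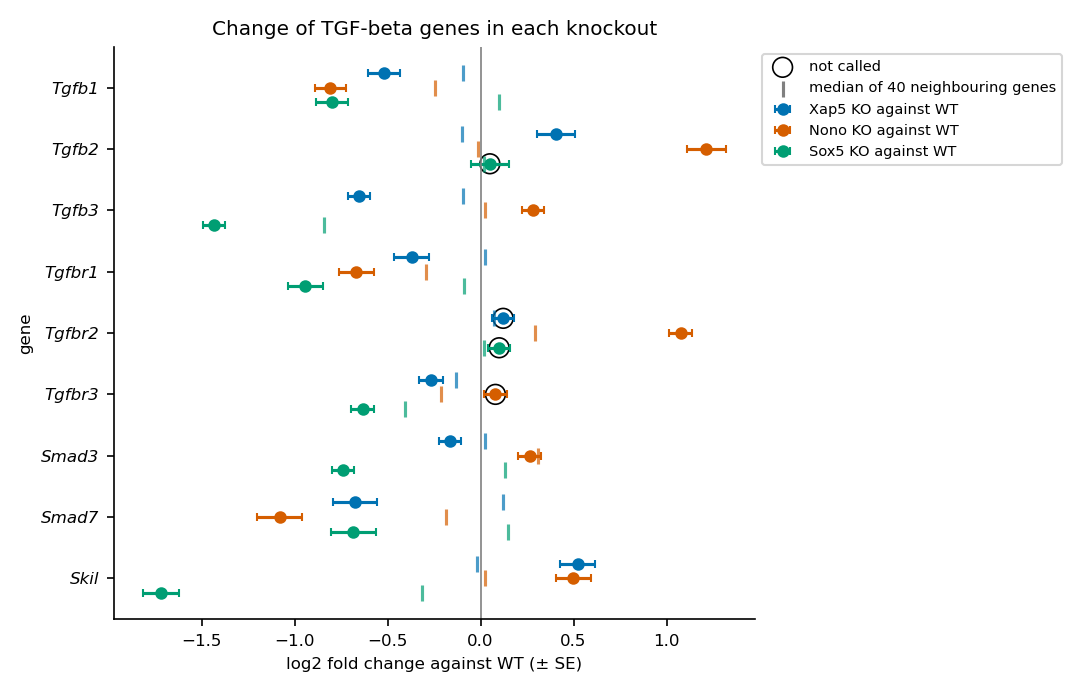
Log2 fold change of each of the 9 genes against WT in the 3 knockouts, with bars of 1 standard error from the edgeR fit; a ring marks values that did not pass an adjusted p under 0.05, and vertical ticks give the median of the 40 nearest tested genes. Skil in Sox5 KO (-1.72) lies far below its neighbours' median of -0.31, whereas the neighbours of Tgfb3 are themselves at -0.84.

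The knockouts were then compared with each other in the same fit, without the WT libraries entering the contrast. Between Xap5 KO and Nono KO, 8 of 9 members were called, against 53.0% of all tested genes, with 3 higher in Xap5 KO and 5 higher in Nono KO (27.1% and 25.9% of all). Between Xap5 KO and Sox5 KO, 7 of 9 were called, all 7 higher in Xap5 KO, against 61.6% of all tested genes, 31.1% higher and 30.4% lower. Between Nono KO and Sox5 KO, 8 of 9 were called, 7 of them higher in Nono KO, against 63.5% of all tested genes, 30.9% higher and 32.6% lower. With a 2-fold change required, 0, 1 and 4 members were called in these comparisons, beside 1474, 1995 and 2269 of the 13332 tested genes. Under the offset for GC content and length, Xap5 KO had 5 members above and 1 below Sox5 KO. With library totals, all tested genes between Xap5 KO and Nono KO split into 4721 higher and 2624 lower, from 3613 and 3458. In all, 46 of the 54 tests of a member passed over the 6 comparisons. Of all tested genes, 45.5% to 63.5% were called in each single comparison. The 6 comparisons reuse the same 4 groups, so the 54 tests are not independent of each other.

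Nono KO and Sox5 KO differed most: Skil by 2.22 (SE 0.0894), Tgfb3 by 1.71 (SE 0.0552), Tgfb2 by 1.16 (SE 0.0919), Smad3 by 1.00 (SE 0.0540), Tgfbr2 by 0.98 (SE 0.0530) and Tgfbr3 by 0.71 (SE 0.0568) on the log2 scale, all higher in Nono KO. Relative to chromosome medians Tgfb3 differed by 0.97. Under the offset for GC content and length, Skil differed by 1.76, Tgfb3 by 1.77 and Tgfb2 by 0.92. Smad3 then differed by 0.83, Tgfbr2 by 0.54 and Tgfbr3 by 0.41. Smad7 went the other way, at -0.40 (SE 0.112, edgeR adjusted p = 0.00425). Tgfb1 differed between them by -0.01 (SE 0.0787, edgeR adjusted p = 0.958), and by 0.34 (adjusted p = 0.000686) once each chromosome's median was taken out. Tgfbr1, at 0.28 (SE 0.0861, edgeR adjusted p = 0.0102), was not called in 4 alternatives: relative to chromosome medians (0.04, adjusted p = 0.721), with library totals (0.23, adjusted p = 0.0573), with the offset for GC content and length (-0.10, adjusted p = 0.275) and without Sox5 KO replicate 1 (0.24, adjusted p = 0.0518).

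Xap5 KO lay between the other two knockouts for several members. Tgfb3 was 0.93 (SE 0.0535) lower than in Nono KO and 0.78 (SE 0.0546) higher than in Sox5 KO on the log2 scale, and Smad3 was 0.43 (SE 0.0531) lower and 0.57 (SE 0.0539) higher. Tgfbr3 was 0.35 (SE 0.0564) lower and 0.37 (SE 0.0567) higher, and Tgfb2 was 0.81 (SE 0.0904) lower and 0.36 (SE 0.0917) higher. For Smad7 the value was 0.40 (SE 0.112, edgeR adjusted p = 0.00433) higher than in Nono KO, with a difference of 0.01 (SE 0.111, edgeR adjusted p = 0.950) from Sox5 KO. Skil differed from Nono KO by 0.02 (SE 0.0823, edgeR adjusted p = 0.836) and was 2.24 (SE 0.0894) higher than in Sox5 KO. The latter difference was 1.78 under the offset for GC content and length. Tgfbr2 differed from Sox5 KO by 0.02 (SE 0.0530, edgeR adjusted p = 0.746), and by -0.41 (adjusted p = 1.33e-06) under the offset for GC content and length. The difference from Sox5 KO in Tgfb3 was 0.20 relative to chromosome medians, and that in Tgfbr3 was 0.14. Under the offset, neither Tgfbr3 (0.08, adjusted p = 0.185) nor Tgfb2 (0.15, adjusted p = 0.195) was called between these knockouts. From Nono KO, the difference relative to chromosome medians was -0.19 for Smad3 and -0.60 for Tgfbr3.

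Tgfb1 and Tgfbr1 were higher in Xap5 KO than in each of the other knockouts. Tgfb1 was 0.29 (SE 0.0781, edgeR adjusted p = 0.00414) above Nono KO and 0.28 (SE 0.0785, edgeR adjusted p = 0.00400) above Sox5 KO, although the CPM range of Xap5 KO overlapped that of Sox5 KO. The first of these was not called relative to chromosome medians (0.10, adjusted p = 0.282). Tgfbr1 was 0.30 (SE 0.0852, edgeR adjusted p = 0.00752) above Nono KO and 0.57 (SE 0.0860) above Sox5 KO. The latter was 0.29 relative to chromosome medians and 0.20 (adjusted p = 0.0361) under the offset for GC content and length, whereas Tgfb1 was then 0.44 and 0.45 above Sox5 KO. Without Xap5 KO replicate 3, the library with 154 CPM, the difference from Nono KO was 0.16 (adjusted p = 0.0586).

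To compare the ligands with each other, CPM was divided by the length of the longest annotated transcript. In WT, Tgfb1 was at 49.5 CPM per kb, Tgfb3 at 46.3 and Tgfb2 at 6.96. The summed level of the 3 was 102 and 104 CPM per kb in WT, 77.3, 70.0 and 72.3 in Xap5 KO, 98.6, 103 and 101 in Nono KO, and 55.9, 51.3 and 51.1 in Sox5 KO. Nono KO overlapped WT, Xap5 KO was lower and Sox5 KO lowest. Not all 4 groups were alike by an exact permutation test over 92400 arrangements of the libraries (p = 0.00026, adjusted over this total and the receptor ratio below to 0.00026). That test does not say which groups differ.

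The make-up of that total also differed. Tgfb1 made up 48.2% ± 0.289 of the ligand total in WT (SD, n = 2), 47.1% ± 1.83 in Xap5 KO (SD, n = 3), 28.1% ± 1.86 in Nono KO and 53.7% ± 2.90 in Sox5 KO. Tgfb3 made up 45.1% ± 0.496, 40.3% ± 1.64, 55.9% ± 0.834 and 32.6% ± 2.57 in the same order. Tgfb3 was thus the leading ligand in Nono KO and Tgfb1 in Sox5 KO, with similar shares in WT. These shares carry no chromosome offset, and chromosome 12, with Tgfb3, had a median of -0.75 in Sox5 KO. Taking out chromosome medians put Tgfb1 there at -0.98 and Tgfb3 at -0.70 against WT, from -0.80 and -1.43. Tgfb1 then fell more than Tgfb3, so its lead in Sox5 KO may not hold under that offset. The share of Tgfb2 was 6.77% ± 0.207 in WT and larger in each knockout, at 12.6% ± 0.917, 16.0% ± 2.62 and 13.7% ± 0.728. In Sox5 KO this came with a Tgfb2 level close to WT and lower Tgfb1 and Tgfb3. In exact permutation tests over the 4 groups, adjusted over the 3 shares, p was 0.000682 for Tgfb1, 0.000844 for Tgfb2 and 0.000195 for Tgfb3, the last being the smallest that the arrangements allow before adjustment (6.49e-05). A test of 1 knockout against WT over single values cannot go below 0.1 here.

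**Figure D3:**
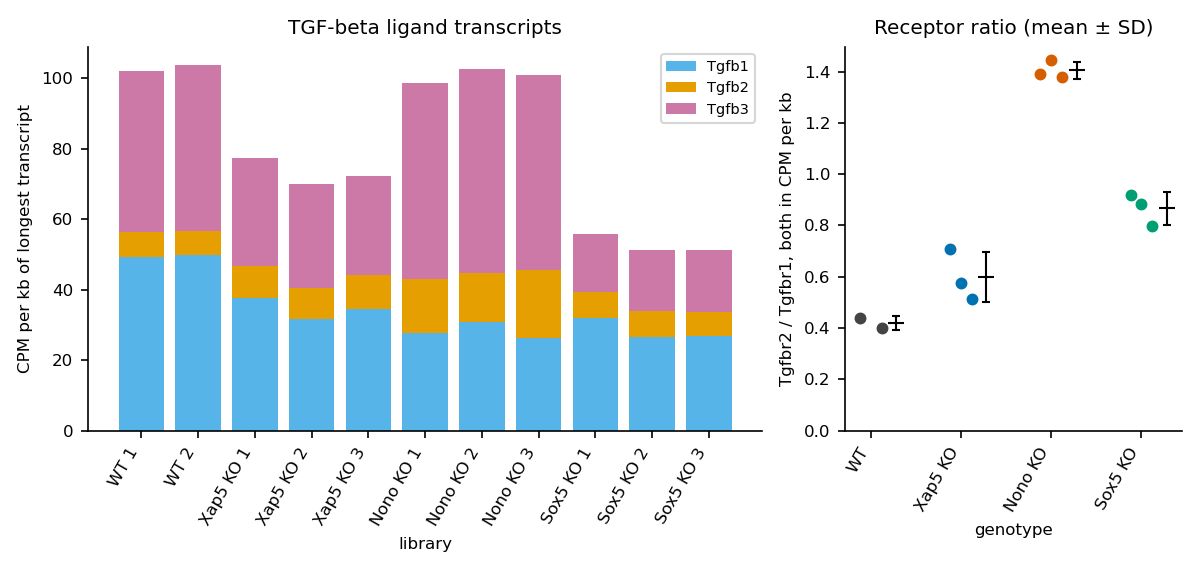
Left, stacked level of the 3 ligands in each of the 11 libraries (CPM per kb of longest transcript); right, ratio of Tgfbr2 to Tgfbr1 by genotype, with libraries as points and mean ± SD as dash and bar. Tgfb3 makes up most of the total in Nono KO (55.9%), and the receptor ratio runs from 0.420 in WT to 1.40 in Nono KO without overlap between groups.

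The balance of the 2 signalling receptors shifted in every knockout. The ratio of Tgfbr2 to Tgfbr1 per transcript length was 0.440 and 0.400 in WT, 0.708, 0.576 and 0.514 in Xap5 KO, 1.39, 1.44 and 1.38 in Nono KO, and 0.921, 0.883 and 0.797 in Sox5 KO. The groups did not overlap, with WT lowest and Nono KO highest. An exact permutation test over the 4 groups gave p = 0.00013 (adjusted 0.00026). In Xap5 KO and Sox5 KO the higher ratio came with lower Tgfbr1, and in Nono KO with both lower Tgfbr1 and higher Tgfbr2. Betaglycan's share of the 3 receptors was 57.0% ± 1.03 in WT, 56.8% ± 0.560 in Nono KO and 55.6% ± 0.741 in Sox5 KO. In Xap5 KO it was 56% ± 4.10. These Xap5 KO libraries spread most, from 51.3% to 59.0%, a wider range than that of the group means.

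Over the 11 libraries, log2 CPM values of the members fell into sets that moved alike. Tgfb3, Tgfbr3 and Smad3 had Pearson correlations of 0.968 to 0.986 with each other, and Skil had 0.890 with Smad3. Tgfb2 and Tgfbr2 were at 0.947. Tgfb1 was at 0.818 with Smad7 and at 0.800 with Tgfbr1. Smad7 ran against Tgfb2 (-0.746) and Tgfbr2 (-0.742). These values describe 11 libraries in 4 groups that share genotype, and they carry no p-value.

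Among all other tested genes, those most like each member over the 11 libraries were named by the same correlation. They were Cdk20 (0.980) for Tgfb1, Rap2a (0.981) for Tgfb2, Sfpq (0.996) for Tgfb3, Cep97 (0.987) for Tgfbr1, Nlgn1 (0.992) for Tgfbr2, Utrn (0.990) for Tgfbr3, Pik3r1 (0.995) for Smad3, Wasl (0.977) for Smad7 and Slc2a13 (0.995) for Skil. Sfpq, which encodes a partner of the NONO protein, was also among the 3 most like Tgfbr3 (0.988). Ltbp2, which encodes a latent TGF-beta binding protein family member, was among the 3 most like Smad3 (0.994), and the AP-1 gene Junb among the 3 most like Smad7 (0.959). Such likeness was common: 532 genes passed a correlation of 0.9 with Tgfb3 and 528 with Tgfbr3. For Smad3 and Skil the counts were 648 and 681, and for Tgfb1 and Smad7 59 each.

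**Figure D4:**
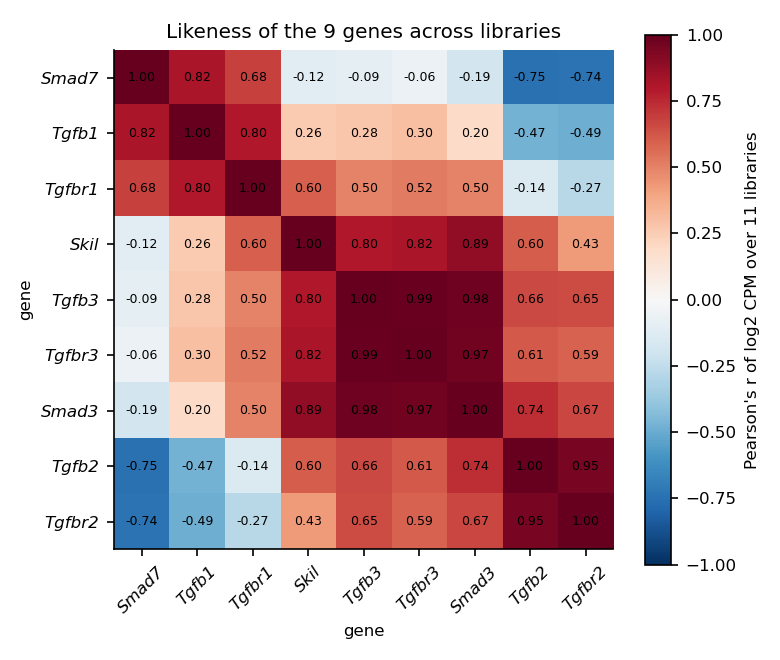
Pearson correlation of log2 CPM between each pair of the 9 genes over the 11 libraries, with the value in each cell. Tgfb3, Tgfbr3 and Smad3 form a block at 0.968 to 0.986, and Smad7 is negative with Tgfb2 (-0.746) and Tgfbr2 (-0.742).

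The rest of the pathway was described with 6 lists of 98 genes by role, of which 88 passed the filter on low counts. Of these 88, 27 were called higher and 32 lower in Xap5 KO, 39 and 26 in Nono KO, and 27 and 36 in Sox5 KO (36 and 29 under the offset for GC content and length). The medians of the 88 were -0.04, 0.10 and -0.07 on the log2 scale. The shares called in all tested genes given above for each knockout apply here too.

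Latency and activation genes decide how much secreted ligand is freed. In Nono KO 9 of 16 were higher and 5 lower, with a median of 0.61. Both Xap5 KO and Sox5 KO had 5 higher and 9 lower, with medians of -0.22 and -0.30. Thbs1, whose product thrombospondin-1 activates latent ligand, rose from 261 ± 8.41 CPM in WT to 3278 ± 145 in Xap5 KO, 1936 ± 91.9 CPM in Nono KO and 1344 ± 92.8 CPM in Sox5 KO. Ltbp4, a latent TGF-beta binding protein gene, fell by 3.02 (SE 0.133) on the log2 scale in Xap5 KO, and its value was -2.77 (SE 0.131) in Nono KO and -0.67 (SE 0.125) in Sox5 KO. The last was -0.08 (adjusted p = 0.595) under the offset for GC content and length. Fbn1, the fibrillin that tethers latent complexes to the matrix, rose most in Nono KO, from 60.5 ± 0.857 to 359 ± 5.90 CPM. Ltbp2 followed the Tgfb3 order, with log2 fold changes of -0.43, 0.71 and -1.99, and its 40 nearest genes had a median of -0.74 in Sox5 KO.

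Activin genes signal through the same receptor SMADs by other receptors, and their traps bind ligand outside the cell. Of 7 tested, 3 were higher and 3 lower in Xap5 KO and in Nono KO, and 2 and 2 in Sox5 KO. Inhba, the activin A subunit, rose from 11.0 ± 0.192 CPM in WT to 103 ± 5.79 in Xap5 KO, 46.7 ± 5.12 CPM in Nono KO and 18 ± 1.40 CPM in Sox5 KO. The activin trap Fst was low, at 0.844 ± 0.668 CPM in WT, and reached 2.87 ± 0.370 in Xap5 KO and 5.99 ± 0.907 in Nono KO. Its lower value in Sox5 KO (-1.84, SE 0.498) was not called without WT replicate 2 (-0.66, adjusted p = 0.348). Fstl1, a follistatin-like secreted protein gene, rose by 1.43 (SE 0.0630) in Nono KO and fell by 0.83 (SE 0.0595) in Sox5 KO. Fstl3 was at -0.97 (SE 0.152) in Xap5 KO. It was not called in the other two, except in Sox5 KO relative to chromosome medians (0.44, adjusted p = 0.0152).

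Of 8 other receptor and co-receptor genes, 4 were higher and none lower in Nono KO, with a median of 0.57. In Xap5 KO and Sox5 KO 1 was higher and 1 lower. Sdc2, a syndecan, had a log2 fold change of 1.08 (SE 0.0637) in Nono KO. Cd109, a co-receptor known to dampen TGF-beta signalling, went from 303 ± 13.0 CPM in WT to 487 ± 15.3 in Nono KO and 139 ± 1.97 in Sox5 KO. Nrp1, a neuropilin that binds TGF-beta, rose by 1.32 (SE 0.109) in Xap5 KO and by 0.92 (SE 0.108) in Nono KO. Eng, an endothelial co-receptor gene with 1.54 ± 0.281 CPM in WT, was called in Nono KO at 0.97 (SE 0.352). That call was lost with library totals (0.80, adjusted p = 0.0594), without WT replicate 1 (1.17, adjusted p = 0.0503), without WT replicate 2 (0.80, adjusted p = 0.171) and without Nono KO replicate 1 (0.67, adjusted p = 0.150).

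Smads and signal mediators had the smallest medians of the 6 lists, at -0.01, -0.08 and -0.08 over 12 genes. Of them 2 were higher and 2 lower in Xap5 KO, 2 and 4 in Nono KO, and 3 and 5 in Sox5 KO. Fkbp1a, whose product holds the type I receptor inactive, rose in every knockout, by 0.62 (SE 0.0615), 0.77 (SE 0.0617) and 1.04 (SE 0.0623). Tgfb1i1, the Hic-5 adaptor gene, rose by 0.61 (SE 0.0866), 0.84 (SE 0.0870) and 1.11 (SE 0.0879). Zfyve9, which encodes the SMAD anchor SARA, was at -0.77 (SE 0.0777) in Sox5 KO. With library totals it was also called in Nono KO (-0.23, adjusted p = 0.0126). The coactivator gene Ep300 was at -0.65 (SE 0.0692) in Sox5 KO, and at -0.03 (adjusted p = 0.675) under the offset for GC content and length. Smad2, the other TGF-beta receptor SMAD, lies outside the naming rule and was chosen after its values were seen: it was at 0.03 in Xap5 KO, 0.0048 in Nono KO and, with the opposite sign, -0.08 in Sox5 KO, with no call.

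Feedback inhibitors and corepressors were called lower more often than higher in Sox5 KO, where 10 of 18 were lower and 2 higher, with a median of -0.47. In Xap5 KO 7 were lower and 4 higher, and in Nono KO 7 and 5. Smad6, the other inhibitory SMAD, fell from 30.1 ± 2.11 CPM in WT to 21 ± 3.08 in Xap5 KO, 23.1 ± 1.91 CPM in Nono KO and 8.37 ± 1.06 CPM in Sox5 KO. The Nono KO value of Smad6, -0.38, was not called without WT replicate 2 (-0.30, adjusted p = 0.183), without Nono KO replicate 2 (-0.31, adjusted p = 0.0774) or under the offset for GC content and length (-0.18, adjusted p = 0.258). Ski, the paralogue of Skil, was at -0.89 (SE 0.0529) in Sox5 KO. Its value in Nono KO, 0.18 (SE 0.0533), was not called with library totals (0.016, adjusted p = 0.818) or without WT replicate 1 (adjusted p = 0.0647), and in Xap5 KO it was called under the offset (0.26, adjusted p = 0.000217). Ldlrad4, which encodes an inhibitor of receptor SMAD activation, rose by 1.77 (SE 0.212) in Nono KO and fell by 1.59 (SE 0.222) in Sox5 KO. The decoy receptor gene Bambi rose in Xap5 KO from 4.87 ± 1.13 to 16.4 ± 2.16 CPM. It did not pass the threshold in the other two, except in Sox5 KO under the offset (0.55, adjusted p = 0.0414). Smad7 and Skil in Sox5 KO therefore fell beside Smad6 and Ski.

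TGF-beta responsive transcripts were called higher more often than lower: 12 of 27 higher and 10 lower in Xap5 KO, 16 and 7 in Nono KO, and 14 and 9 in Sox5 KO, with medians of 0.37, 0.73 and 0.27. Acta2 and Tagln rose in all 3 knockouts. Acta2, smooth muscle actin, went from 144 ± 6.47 CPM in WT to 1635 ± 200.4 in Xap5 KO, 2168 ± 197 CPM in Nono KO and 2840 ± 170 CPM in Sox5 KO. Tagln, which encodes the actin-binding protein transgelin, went from 14.1 ± 0.671 to 194 ± 5.33, 387 ± 61.4 and 233 ± 6.87 CPM. The fibrillar collagen gene Col3a1 went in different directions, from 379 ± 34.3 CPM in WT to 189 ± 17.3 in Xap5 KO, 4904 ± 494 CPM in Nono KO and 577 ± 45.6 CPM in Sox5 KO. Edn1, the endothelin-1 gene, was at 0.223 ± 0.316 CPM in WT, with no count in 1 of 2 libraries, and at 9.72 ± 0.885, 4.57 ± 0.467 and 11.5 ± 0.205 CPM in the knockouts. These transcripts respond to other pathways as well, and no TGF-beta signal was measured. The summed level of the fibroblast markers was 42930 to 46810 CPM in Nono KO against 18154 to 23541 in the other libraries. Fn1, Col1a2 and Col1a1, which are also among the responsive transcripts, averaged 20505, 10528 and 6973 CPM in Nono KO. In WT they averaged 13961, 3272 and 1090 CPM. Vim, Thy1 and S100a4 were also higher in Nono KO than in WT. Pdgfra (868 from 884 CPM) and Pdgfrb (478 from 487) were not. The part of this sum in these values was not tested.

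**Figure D5:**
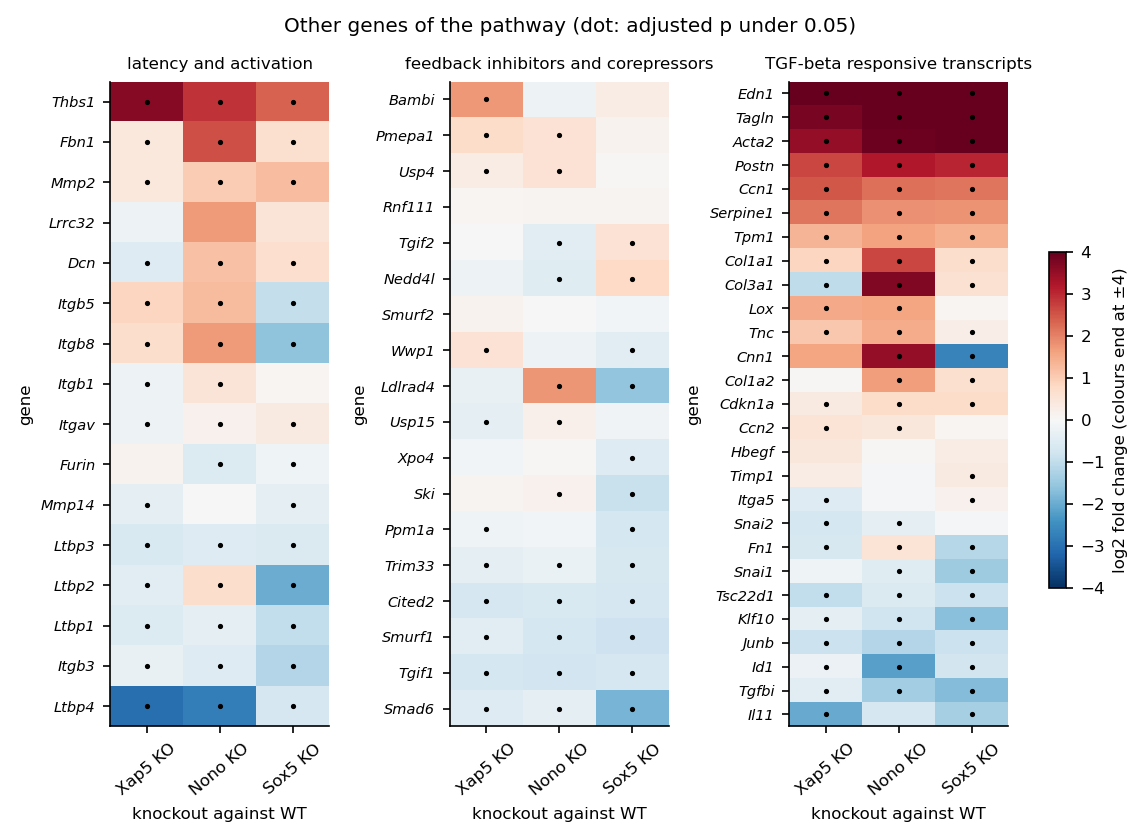
Log2 fold change against WT of the tested genes of 3 of the 6 lists (latency and activation, feedback, responsive transcripts) in the 3 knockouts; colour gives size and direction, and a dot marks an adjusted p under 0.05. Acta2 and Tagln are among the strongest increases in all 3 knockouts, while Itgb8 and Ldlrad4 are higher in Nono KO and lower in Sox5 KO.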

How the data were processed

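Total RNA of 11 libraries (TRIzol, NEBNext Ultra II kit, per the labels' protocols) was available as 1 table of gene counts that the authors deposited. The values were taken as estimated counts rounded by the authors, since 857 entries were 1 but 3302 were 2. HISAT2 2.1.0, StringTie 1.3.3b, DESeq2 1.12.4 and the build GRCm39 (mm39) are named in the submitters' processing notes, with no role or order. The annotation and the handling of strand are not given in the sources used here, so reads of Tgfb2, Tgfb3 and Tgfbr3 could include those of overlapping transcripts annotated in GENCODE M21. That limit also covers other named genes. Among them, Eng, Fstl3, Tagln and Ldlrad4 overlap protein-coding genes, and Edn1, Fst and Ltbp2 overlap antisense genes. Gene lengths and chromosomes came from that annotation (GRCm38), which matched 21540 of 21684 IDs, so no coordinates of the authors' build are given.

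Genes were kept by edgeR's filterByExpr (minimum count 10, minimum total 15). Counts were scaled by TMM and fitted with edgeR 4.0.16 in R 4.3.3 (glmQLFit, robust, 1 mean per genotype) over all 11 libraries, with Benjamini-Hochberg adjustment over 13332 genes and calls under 0.05. The biological coefficient of variation common to all genes was 10.6%. SE is the fold change divided by the root of F. Correlations used log2 CPM with a prior count of 2. The script was tested on simulated counts. The 9 members and the lists were chosen with earlier results of these data known. From each list, up to 4 genes were named: those with the largest change in any knockout among called genes with a mean of at least 1 CPM. For each member, up to 3 most correlated genes were named. Alternatives were other scalings, filters and sample sets, DESeq2 1.42.0, the replicate block, leaving out each library and offsets per chromosome or for GC content and length, the last added after seeing the data. No library pair held identical values.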

Additional observations from a re-analysis of the deposited data

How the results depend on the processing

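Of 1080 alternative values of the members' fold changes, 1032 kept their direction and their side of the threshold, 13 lost the call, 4 gained it and 31 changed sign. Most sign changes concern differences that were not called. Tgfb1 between Nono KO and Sox5 KO (-0.01) was 0.0072 with DESeq2's size factors in edgeR or in DESeq2, 0.0057 without a filter, 0.018 with at least 10 counts in every library, 0.0016 from the libraries of both groups alone, 0.34 relative to chromosome medians, 0.16 with the offset for GC content and length, and -0.0684 to 0.0855 leaving out 1 library at a time. With library totals, Tgfb2 and Tgfbr2 in Sox5 KO were -0.0649 and -0.0148, and Tgfbr3 in Nono KO -0.0841. Relative to chromosome medians, Tgfb2 and Tgfbr2 in Sox5 KO were -0.0047 and -0.0074, and Smad3 in Nono KO -0.0902. With the offset for GC content and length, Tgfbr1 between Nono KO and Sox5 KO was -0.10, Tgfbr2 and Smad7 between Xap5 KO and Sox5 KO -0.41 and -0.0576, Fstl3 in Sox5 KO -0.0756 and Ep300 in Xap5 KO 0.0215. Leaving out 1 library gave -0.0119 to 0.0572 for Tgfbr2 and -0.0705 to 0.104 for Smad7 between Xap5 KO and Sox5 KO, and -0.0375 to 0.0889 for Skil between Xap5 KO and Nono KO; Bambi in Nono KO was 0.0705 without WT replicate 2. Where a cause is not stated, the cause was not tested.

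Requiring 2-fold besides the adjusted p left 0, 3 and 2 members called against WT for the knockouts of Xap5, Nono and Sox5, and 0, 1 and 4 between Xap5 KO and Nono KO, Xap5 KO and Sox5 KO, and Nono KO and Sox5 KO, since that rule drops smaller changes. It left 18, 29 and 24 of the 88 other pathway genes against WT, beside 10.3%, 11.2% and 17.2% of all tested genes. The replicate block, with the number from the labels as a term, left all 54 member tests on their side of the threshold, the 46 called ones included, with the log2 fold change of Tgfb1, Xap5 KO against WT, at -0.49. In that fit 1 named gene lost its call, Sdc2 in Xap5 KO (-0.16, adjusted p = 0.0548). Same-numbered libraries deviated together weakly at most, with 15 correlations from -0.023 to 0.046. Their median was 0.0082, beside -0.0039 for the 30 other pairs, and 10 of 11 libraries matched their own number best. Whether the numbers mark a pairing was not tested. With 2 WT libraries, the spread rests on the fit over all groups.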

Other observations

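Some pathway genes outside the naming rule, chosen after their values were seen, moved in opposite directions in the Nono and Sox5 knockouts. Itgb8, the integrin subunit that frees latent TGF-beta at the cell surface, averaged 29.4 CPM in WT, 95.3 in Nono KO and 9.64 in Sox5 KO. Its difference between these knockouts was 3.30 (SE 0.102) on the log2 scale, with an edgeR adjusted p of 1.69e-16. Itgb5, another integrin subunit of latent ligand activation, averaged 201 CPM in WT, 483 in Nono KO and 103 in Sox5 KO, a difference of 2.23 (SE 0.0644, edgeR adjusted p = 5.74e-17). Fn1, the fibronectin gene, averaged 20505 CPM in Nono KO and 6299 in Sox5 KO from 13961 in WT, a difference of 1.70 (SE 0.0663, edgeR adjusted p = 6.33e-15). Because these genes were chosen with their values seen, their p-values are no separate test. Between these knockouts 63.5% of all tested genes were called.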
